A study of Danio rerio with 2 samples.

Results

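Among the transcribed regions of the zebrafish genome that were listed in both of 2 sorted spinal cell populations, 311 were at least 4-fold higher in the panneuronal population than in the olig2+ subpopulation. They were selected by their values from 22655 counted regions, so they made up 1.37% of the counted regions, and from 46045 regions listed in all. A counted region had a locus in both libraries and reached 1 FPKM in at least 1 of them, where FPKM stands for fragments per kilobase, scaled to the number of fragments mapped. The rule required log2((FPKM in 1020 + 1)/(FPKM in HuC + 1)) at or below -2, and every fold of FPKM given below is on this (FPKM + 1) scale, HuC over 1020. Ratios by fragment numbers are not on this scale and use no pseudocount. The selection used the FPKM of both libraries, so the levels and folds of these regions are a description and no finding by themselves.

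Both libraries came from Danio rerio embryos, 20 hours after fertilization, whose tails were cut free at the third somite and dissociated, after which fluorescent neural cell bodies were sorted and polyA RNA was sequenced. The library called 1020 came from the Gal4 driver 1020st, labelled olig2+ subpopulation, and the library called HuC from a HuC Gal4 driver, labelled panneuronal. Each population is defined by what its driver marks, the populations may share cells, and the number of embryos behind each library is not given in the sources used here. Each population had 1 library, so differences could not be set against a spread between replicates, and neither p-values nor standard errors are given. In bulk samples such as these, more cells of a type and more RNA per cell cannot be told apart. The deposited loci carry positions on the Zv9 build and no gene names, so markers of neurons or of the olig2 domain were not analysed here and the labels could not be checked against them.

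HuC, or Elavl3, is an RNA-binding protein that neurons begin to make as they leave the cell cycle, and its promoter is widely used to mark newly formed neurons in zebrafish. Olig2 is a transcription factor of the ventral spinal progenitors that give rise to motor neurons and then to oligodendrocytes. In the embryonic fish cord the neurons that differentiate first include Rohon-Beard sensory cells, primary motor neurons and early interneurons, and a panneuronal driver can mark cell classes that an olig2 domain driver does not.

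The 311 regions ranged from 0.290 to 399 FPKM in the 1020 library and from 6.31 to 4315 FPKM in the HuC library. Their median was 3.73 FPKM in 1020, with quartiles of 1.56 and 9.72, and 28.2 FPKM in HuC, with quartiles of 14.4 and 71.4. Over all counted regions the median was 5.02 FPKM in each library. The upper quartile over all counted regions was 13.2 FPKM in HuC, so most of the selected regions stood high in that library, which the rule favours. In HuC 110 regions reached 50 FPKM in HuC and 10 reached 1000 FPKM. In the 1020 library 38 of the 311 lay under 1 FPKM and 22 reached 50 FPKM. The 38 were 2.70% of the 1409 counted regions at that level, against 1.37% over all counted regions. At 50 to 100 FPKM the share was 1.36% of 808, and at 100 FPKM or more 1.75% of 627, both near that overall share. All 311 were listed in 1020, as the rule requires.

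**Figure D1:**
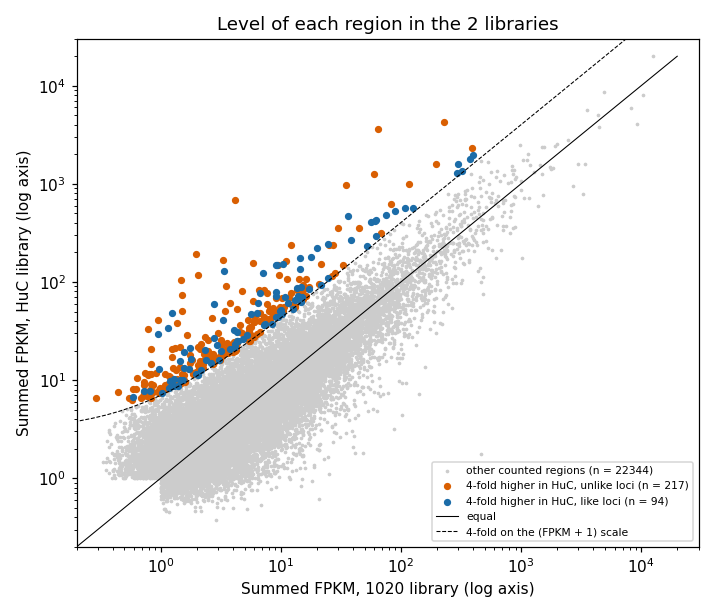
Summed FPKM of each counted region in the 1020 library (horizontal) and the HuC library (vertical), both on log axes. The 311 selected regions lie above the dashed line of 4-fold on the (FPKM + 1) scale; blue points are the 94 whose highest loci are alike in both libraries and orange points the other 217, and grey points are the other 22344 counted regions.

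The median log2 ratio of the selected regions was -2.40, against -0.04 over all counted regions. Most lay close to the threshold: 248 were under 8-fold, and 63 (0.278% of the counted regions) were at 8-fold or more. At 16-fold or more there were 20. Just inside the threshold, the unplaced sequence Zv9_NA732 from 107846 to 113829 had 12.6 FPKM in 1020 and 53.4 FPKM in HuC, chr11:2307840-2326835 had 1.61 and 9.46 FPKM, and chr10:7782173-7811331 had 5.53 and 25.1 FPKM. Just outside it, chr10:45967064-45999087 had 9.12 and 39.4 FPKM, chr23:10453919-10457826 had 99.7 and 401 FPKM, and chr7:35448625-35493967 had 6.62 and 29.4 FPKM. The log2 ratios of these 6 regions spanned -2.0037 to -1.9979, so the boundary separates regions with nearly equal ratios. On chr10:7782173-7811331 the HuC sum joined 5 loci. Its long locus of 27742 bp stood at 4.85 FPKM, near the level of the single 1020 locus of 29159 bp, and the highest loci gave a log2 ratio of -0.46.

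The share of regions that met the rule rose with their level in HuC, which the rule itself favours. It was 1.01% of the 4242 regions at 5 to 10 FPKM, 2.82% of the 5599 at 10 to 50 FPKM, 7.35% of the 544 at 100 to 500 FPKM, and 17.9% of the 56 at 1000 FPKM or more. Regions at least 4-fold higher in 1020 were absent from that last class, and made up 0.945% of all counted regions. A class of 56 is too small to differ visibly from that share, and their rule disfavours high levels in HuC. By span, which the rule did not use beyond a minimum locus length, the share was 0.791% at 300 to 1000 bp, highest at 1.94% at 3000 to 10000 bp, and 0.885% at 100000 bp or more. The regions 4-fold higher in 1020 showed another order, with 0.593% at 300 to 1000 bp, 0.902% at 3000 to 10000 bp, 1.14% at 10000 to 30000 bp, 1.08% at 30000 to 100000 bp and 2.04% at 100000 bp or more. The selected regions had a median span of 8685 bp, against 7598 bp over all counted regions and 12998.5 bp for the regions 4-fold higher in 1020.

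**Figure D2:**
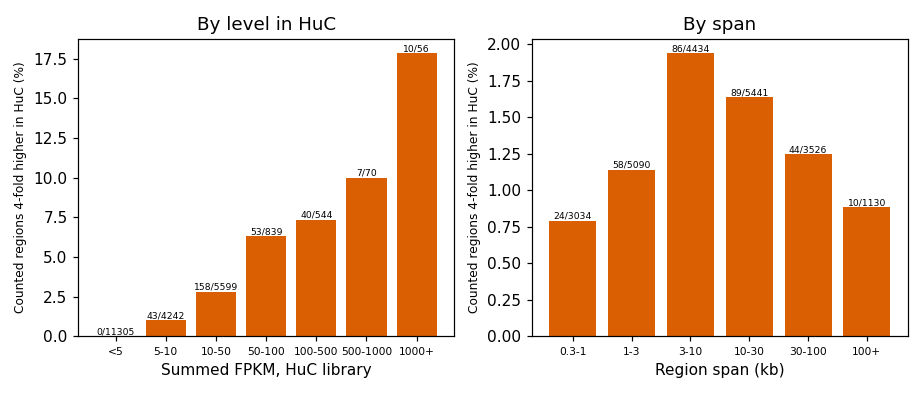
Share of counted regions that were at least 4-fold higher in HuC, by summed FPKM in HuC (left) and by region span in kilobases (right); the numbers on the bars are selected over counted regions. The share reached 17.9% in the class of 1000 FPKM or more and peaked at 1.94% at spans of 3 to 10 kb.

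The most abundant of the selected regions in HuC was chr19:5974428-5988845, at 230 FPKM in 1020 and 4315 FPKM in HuC, a fold of 18.7. The HuC library listed it as 3 separate loci at 1560, 859 and 1896 FPKM, while the 1020 library listed a locus of 14273 bp at 150 FPKM and 2 loci inside it at 34.4 and 45.1 FPKM. Its highest loci alone gave a log2 ratio of -3.65 in place of -4.22, and rough fragment numbers gave -1.53, which is under 4-fold. Several abundant regions had a simpler structure. On chr2:49251383-49258904 each library listed 1 locus, at 399 FPKM in 1020 and 1956 FPKM in HuC, a fold of 4.89. On chr8:2668920-2681238 the values were 298 and 1589 FPKM, again with 1 locus each and a fold of 5.32.

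A single long locus in each library carried chr16:16189842-16391922, at 321 FPKM over 201412 bp in 1020 and 1340 FPKM over 201416 bp in HuC. Its fold of 4.17 was the lowest of the 10 most abundant selected regions. The region chr11:2024717-2033301 had 392 FPKM in 1020 and 2334 FPKM in HuC, the latter as overlapping loci at 655 and 1679 FPKM. These regions were abundant in both libraries: the 5 selected regions with the most FPKM in 1020 lay between 298 and 399 FPKM there, and all 5 were among the 10 highest in HuC.

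In the other abundant regions the sum or the shape of the loci differed between the libraries. On chr2:26646665-26649708 the sum was 1812 FPKM in HuC against 373 FPKM in 1020, but it joined overlapping HuC loci of 463 and 1349 FPKM, and the higher of them alone gave a log2 ratio of -1.85, short of 4-fold. On chr5:24294092-24298078, at 294 FPKM in 1020 and 1280 FPKM in HuC, the HuC sum joined loci of 517 and 763 FPKM with nearly the same ends, and the higher alone gave -1.37. On chr22:33728323-33733332, at 197 and 1602 FPKM, a HuC locus of 652 bp at 1348 FPKM lay within one of 5009 bp at 254 FPKM. The long HuC locus is close in span and level to the 1020 locus of 4976 bp at 197 FPKM, so the excess was carried by the short one. On chr12:15736069-15738836 the single HuC locus of 845 bp at 1260 FPKM covered part of the 1020 locus of 2768 bp at 59.7 FPKM. By rough fragment numbers the log2 ratio was -2.36 on chr2:26646665-26649708 and -2.12 on chr5:24294092-24298078, both past 4-fold. It was -0.96 on chr22:33728323-33733332, under 2-fold, and -2.42 on chr12:15736069-15738836. Of the 10 most abundant selected regions, 8 were past 4-fold with the highest locus of each library. Those with 1 locus in each library pass by construction, since the highest locus is then the sum.

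The 12 lowest ratios belonged mainly to regions whose loci differed in shape between the libraries, and 2 of the 12 had highest loci of like span. On chr13:8206407-8208790 the fold was 134, with 4.18 FPKM over 2352 bp in 1020 and loci of 315 to 560 bp in HuC. Its log2 ratio was -7.06 by sum, -4.45 when loci under 500 bp were left out and -3.86 by rough fragment numbers. On chr6:23188453-23193372 it was 64.6, at 1.98 and 192 FPKM. The region chr6:17407012-17835313 followed at a fold of 55.3 and was also the longest of the 311. A HuC locus of 186296 bp held 3601 of the 3623 FPKM there. The 1020 library had 35 loci used in the comparison, which summed to 64.5 FPKM, the highest of them at 8.91 FPKM. The 1020 locus with nearly the same ends as that HuC locus, of 187273 bp, stood at 0.485 FPKM. The 1020 sum counted many small pieces. It left out 3 other 1020 loci, the highest at 416137 FPKM, whose effect on the fold was not tested. With the highest of the loci used in each library the log2 ratio was -8.51 in place of -5.79. That 1020 locus, however, spanned 766 bp and shared 0.41% of the longer span.

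On chr14:563318-565796 the 1020 library had a locus of 391 bp at 3.28 FPKM at one edge of a HuC locus of 2479 bp at 168 FPKM. On chr25:1106679-1107975 a HuC locus of 442 bp held 115 of 119 FPKM, against 2.07 FPKM over 1294 bp in 1020. When loci under 500 bp were left out, that log2 ratio moved from -5.29 to -0.73, so the call rests on the short HuC locus. On chr25:1206948-1209456 the values were 5.83 and 156 FPKM. On chr6:39239442-39274703 the 1020 library listed a locus of 4457 bp at 35.1 FPKM, and the HuC library a matching one of 4445 bp at 267 FPKM together with one of 35249 bp at 696 FPKM.

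The clearest of the 12 by structure was chr3:36708980-36730492. It held 1 locus in each library, of 21398 bp in 1020 and 21513 bp in HuC, at 3.34 and 129 FPKM, a fold of 30.02. On chr8:7654460-7663148 the level was 1.496 FPKM in 1020 and 73.1 FPKM in HuC, a fold of 29.7, from loci that shared 76.3% of the longer span. All 12 were past 4-fold with the highest locus of each library as well, and their order then changed. Those with 1 locus in each library pass by construction, and in the others the highest loci were not of like span. The highest locus is therefore no separate check on these calls.

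Counts of fragments could be recovered for a few short regions, where the FPKM of a locus was a whole multiple of a fixed amount. The lowest recurring value at a span was taken as 10 fragments, an assumption that sets the scale of these numbers and their intervals. Of the selected regions, 6 had 1 locus of 300 to 600 bp in each library with such an amount, and in 4 of these both values were whole to within 0.01 fragments. On chr10:46571934-46572521 there were 22 fragments in 1020 (1.47 FPKM, exact 95% Poisson interval 0.922 to 2.23 FPKM) and 410 in HuC (104 FPKM, 94.2 to 115 FPKM). The loci there spanned 583 bp in 1020 and 373 bp in HuC. The shortest selected region, chr4:62087095-62087414, had 31 fragments in 1020 (6.71 FPKM, 4.56 to 9.53) and 203 in HuC (77.6 FPKM, 67.3 to 89.1), on loci of 312 bp in both. Both regions were selected by these same values, so the gap between the intervals is part of the selection and no test of it. On chr2:56539934-56540371 there were 10 fragments in 1020, the number assigned to the lowest recurring value, and 47 in HuC, on loci of 393 and 438 bp. On chr3:34111757-34112290 there were 19 and 36 fragments, with 0.874 to 2.27 FPKM in 1020 and 6.39 to 12.6 FPKM in HuC. The loci there spanned 534 bp in 1020 and 373 bp in HuC, and the shorter span raises the HuC FPKM. The recovered denominators were 38195710 fragments in 1020 and 21878344 in HuC, so fragment numbers of the libraries are not directly comparable. These intervals cover counting error only, since amplified fragments need not come from separate molecules, and say nothing of the spread between sorts.

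How far the libraries listed the same transcript within a region was described by the locus with the highest FPKM in each. Their spans were called alike when they shared 80% or more of the longer one. This held for 94 of the 311 selected regions (30.2%), against 46.7% of all counted regions and 28.0% of the 214 regions 4-fold higher in 1020. In 114 selected regions (36.7%) the 1020 locus was more than 2 times longer than the HuC locus, against 14.5% of all counted regions. The mirrored case, a HuC locus more than 2 times longer, held for 13.5% of the selected regions and for 30.4% of the regions higher in 1020. In both directions, then, the shorter locus was more often in the library with more FPKM. FPKM is scaled per kilobase, and the regions and their highest loci were both chosen by FPKM. The selection can therefore favour this pattern, which is a description only. In 11 selected regions the highest loci did not overlap at all.

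**Figure D3:**
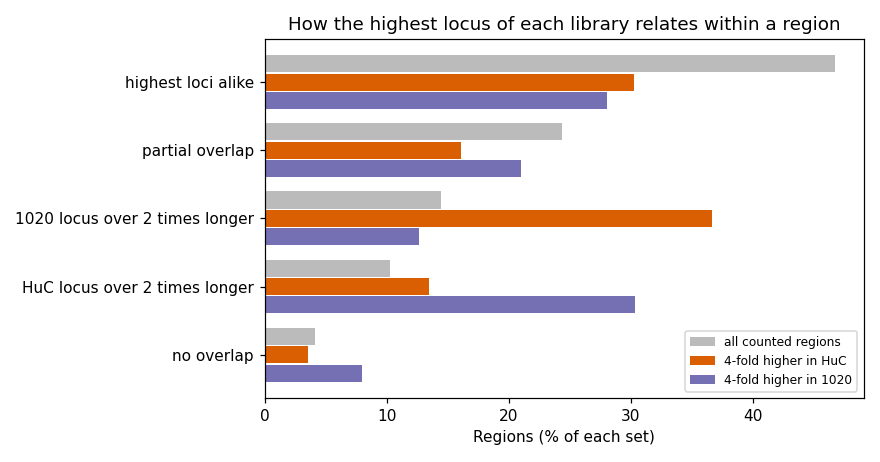
Relation between the highest locus of the 1020 library and that of the HuC library within a region, as a percentage of all counted regions (grey), of the regions 4-fold higher in HuC (orange) and of those 4-fold higher in 1020 (purple). Like spans made up 46.7%, 30.2% and 28.0%, and a 1020 locus over 2 times longer made up 14.5%, 36.7% and 12.6%.

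Regions often held several loci. In HuC, 184 of the selected regions (59.2%) held more than 1 locus, against 38.6% of all counted regions, and in 1020 it was 102 (32.8%) against 40.5%. For the regions 4-fold higher in 1020 the shares were 29.4% in HuC and 71.5% in 1020. Since FPKM were summed, a library with more loci in a region gains FPKM by the rule. With the highest locus in place of the sum, the difference was smaller in 150 of the 311, the same in 109 and larger in 52. The 109 held 1 locus in each library, so their highest locus is the sum and they stay past 4-fold by construction. By this measure 225 of the 311, these 109 included, were past 4-fold, 74 lay between 2-fold and 4-fold and 12 were under 2-fold. Of the counted regions 277 (1.22%) passed 4-fold in the HuC direction, including 52 that the sum did not select. The extreme case, named after its values were seen, was chr13:3318624-3487957, where 14 HuC loci summed to 43.8 FPKM against 1 locus of 7.31 FPKM in 1020. Its log2 ratio was -2.43 by sum and 0.04 by the highest locus.

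**Figure D4:**
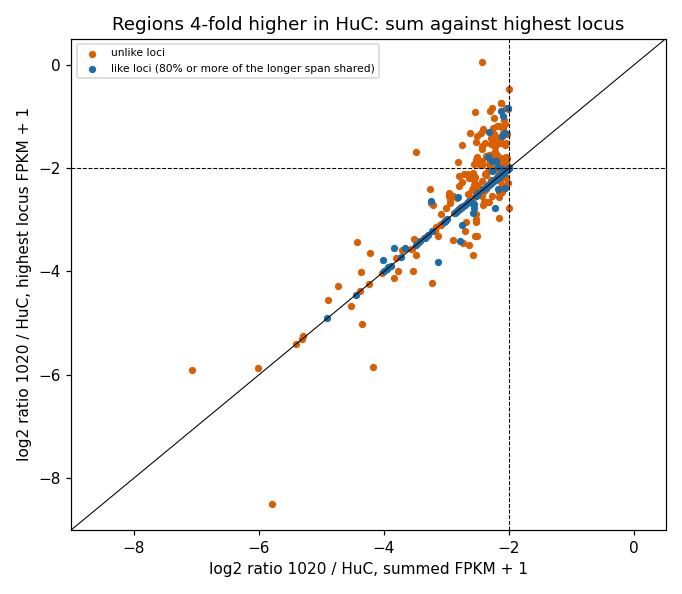
Log2 ratio (1020 over HuC) of the 311 selected regions from summed FPKM (horizontal) and from the highest locus of each library (vertical), with a line of equality and dashed lines at -2. Of the 311, 225 lie at or below -2 on the vertical axis, and the point nearest the top, at 0.04, is the region on chromosome 13 with 14 HuC loci.

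The comparison was least open to these differences in 63 selected regions that held 1 locus of like span in each library. They were 1.04% of the 6033 counted regions of that structure, of which 0.481% were at least 4-fold higher in 1020. The 63 had a median of 4.83 FPKM in 1020 and 37.3 FPKM in HuC, a median span of 4225 bp, and log2 ratios from -4.91 to -2.004. The regions named next were chosen from the 63 after their values were seen, for their ratio or level. After the one on chromosome 3 came chr10:46573901-46574538 at 1.24 and 48.0 FPKM, a fold of 21.9. The unplaced sequence Zv9_NA218 from 2842 to 10320 had 2.78 and 59.4 FPKM, a fold of 15.99. On chr11:11687392-11696443 the values were 9.19 and 150 FPKM, a fold of 14.9.

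Further regions of this structure were more abundant in both libraries. The region chr12:4592935-4604050 had 19.9 FPKM in 1020 and 222 FPKM in HuC, a fold of 10.7. The region chr19:9595660-9602633 had 24.97 and 242 FPKM, on loci of 6964 and 6962 bp. The region chr16:26199914-26202709 had 38.8 and 269 FPKM. On chr4:45370473-45371093 a short locus stood at 74.8 and 478 FPKM, and on chr23:10356311-10360508 a locus of about the same ends in both libraries stood at 90.1 and 526 FPKM. The region chr19:34230317-34236254 had 108 and 573 FPKM, a fold of 5.25. In the 3 regions of this structure over 100 FPKM in 1020, the fold lay between 4.89 and 5.32.

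The selected regions lay on all 25 chromosomes, with 298 placed and 13 on unplaced sequences. Chromosome 19 held the most, 21 of its 894 counted regions (2.35%), and chromosome 6 the lowest share, 6 of 973 (0.617%). Of the 21 on chromosome 19, 19 were past 4-fold with the highest locus, and 8 were of the structure with 1 like locus in each library. Regions with 1 locus in each library, these 8 among them, are in the 19 by construction. Regions 4-fold higher in 1020 made up 0.559% of the counted regions of chromosome 19. The shares are counts over regions of 1 library a population, and no test of the chromosomes was made.

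**Figure D5:**
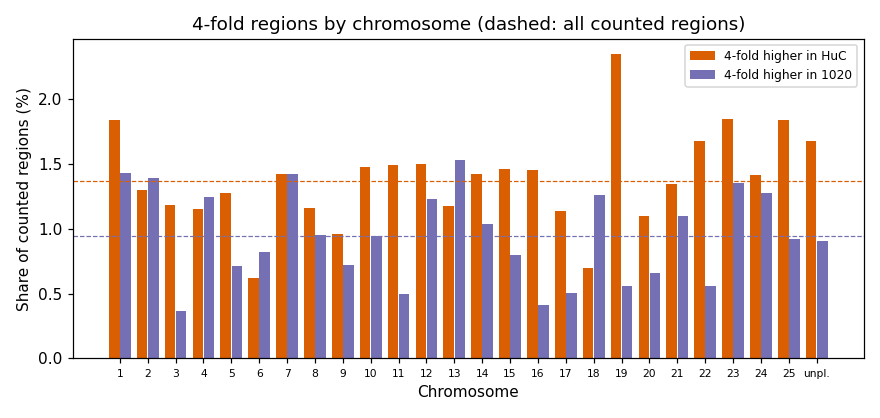
Share of the counted regions of each chromosome, and of the unplaced sequences, that were at least 4-fold higher in HuC (orange) or in 1020 (purple), with dashed lines at the shares over all counted regions, 1.37% and 0.945%. Chromosome 19 had 2.35% higher in HuC and 0.559% higher in 1020.

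Position along the chromosome was measured from the outermost locus listed on it. Of the 298 placed regions, 55 (18.5%) lay within 2 Mb of that locus and 104 (34.9%) within 5 Mb, against 14.05% and 27.1% of all placed counted regions. Within 1 Mb the shares were 10.4% and 8.51%. For the regions 4-fold higher in 1020 they were 10.1% within 1 Mb, 15.0% within 2 Mb and 24.6% within 5 Mb. Of the 60 placed regions with 1 like locus in each library, 3 (5.0%) lay within 1 Mb, a lower share than over all placed counted regions. In the wider windows there were 11 (18.3%) within 2 Mb and 22 (36.7%) within 5 Mb. The distances were chosen after the positions were seen, and the ends of the assembly itself were not used here.

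Selected regions were also found beside each other. The counted regions directly next to a selected one had a median log2 ratio of -0.17, against -0.04 for the neighbours of all counted regions. Neighbours were counted from each selected region, so 2 adjacent selected regions enter from both sides. Of the 602 neighbours counted this way, 30 (4.98%) were themselves at least 4-fold higher in HuC and 105 (17.4%) at least 2-fold, against 1.35% and 10.5% of the neighbours of all counted regions. For neighbours of the regions 4-fold higher in 1020 these shares, again higher in HuC, were 1.43% and 10.2%. In the other direction, 12.8% of those neighbours were at least 2-fold higher in 1020. That share was 8.85% for the neighbours of all counted regions and 6.98% for those of the selected regions. Each set thus had more neighbours of its own direction than all counted regions had. Within 50 kb of each other, 45 selected regions formed 18 pairs and 3 groups of 3. The same count for all counted regions or for the regions 4-fold higher in 1020 is not given here, so the 45 are a description only.

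Some neighbours lay so close that they may be pieces of 1 transcript, which was not tested. Of the 24 neighbouring pairs within these groups, 13 were within 10 kb and 4 within 1 kb. On chromosome 25 the regions 1097842-1106578 and 1106679-1107975 were 100 bp apart, at 14.6 and 2.07 FPKM in 1020 and 174 and 119 FPKM in HuC. On chromosome 4 the regions 45370473-45371093 and 45371451-45373557 were 357 bp apart, at 74.8 and 24.6 FPKM in 1020 and 478 and 109 FPKM in HuC. On chromosome 10 both short regions described above lay 1379 bp apart at the last loci listed for that chromosome. In each of these pairs no counted region lay between the members.

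The groups of 3 differed in what lay between. On chr11:2024717-2056213, a window of 31497 bp, each of the 4 counted regions was higher in HuC by 2-fold or more. They were the abundant region at 392 and 2334 FPKM, regions at 4.76 and 30.3 FPKM, at 5.41 and 22.6 FPKM (log2 ratio -1.88), and at 0.943 and 40.9 FPKM. On chr15:45625494-45699972 the selected regions stood at 0.725 and 7.61 FPKM, 2.34 and 20.3 FPKM, and 1.55 and 19.3 FPKM, and a counted region between them at 1.76 and 2.14 FPKM had a log2 ratio of -0.18. In the first selected region the 1020 locus of 1310 bp covered 11.4% of the region, and the highest loci gave a log2 ratio of -1.92. With a pseudocount of 5 the log2 ratios of the 3 were -1.14, -1.79 and -1.89, all short of 4-fold. That window also held 2 regions listed in HuC only and 1 listed in 1020 only. Loci left out of the comparison lay in the first selected region (HuC, 262 bp at 7.72 FPKM) and the third (1020, 100 bp at 260085 FPKM).

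On chr20:54591519-54685150 the 3 selected regions stood among 6 others. They had 51.8 and 233 FPKM, 9.04 and 79.6 FPKM, and 3.57 and 23.9 FPKM, while regions between them at 34.9 and 32.5 FPKM, at 142 and 126 FPKM, and at 33.1 and 31.1 FPKM were near equal in both libraries. Of the other 3, those at 0.779 and 1.402 FPKM and at 11.6 and 8.82 FPKM were within 2-fold, and the one at 1.90 and 5.86 FPKM had a log2 ratio of -1.24. The last of the 3 selected regions held HuC loci of 2168, 382, 330 and 405 bp against a 1020 locus of 4397 bp. Its log2 ratio was -2.45 by sum and -1.32 by the highest locus, and it turned to 0.18 when loci under 500 bp were left out. The first turned from -2.15 to 2.04 when loci under 300 bp were kept, through a 1020 locus of 119 bp at 911 FPKM.

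The second longest selected region, chr4:34840407-35095651, spanned 255245 bp and joined 9 loci of the 1020 library to 15 of HuC. Its sums were 68.7 and 312 FPKM, and a HuC locus of 5999 bp held 210 FPKM. Among the loci used in the comparison, no 1020 locus of that level lay there. Short loci left out of the comparison also lay in the region. There were 4 in 1020, the highest at 2550 FPKM, and 2 in HuC, the highest at 13206 FPKM. With loci under 300 bp kept, the log2 ratio was -2.32 in place of -2.17. The long loci that tie the region together were higher in 1020, at 11.3 against 1.77 FPKM, so the 4-fold difference of the sums belongs to a small part of the region. At the other end, chr14:13876373-13876722 spanned 350 bp with 1 locus in each library, at 4.29 and 25.03 FPKM.

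Regions without a locus in 1020 could not be selected. The HuC library alone listed 5991 regions, of which 1042 had 3 FPKM or more and would pass 4-fold if the 1020 value were 0. They were not taken as 0, since the filters for listing a locus are not given and a region without a listed locus need not lack RNA. The 311 are thus the regions that met the 4-fold rule on summed FPKM and were still listed in the olig2+ subpopulation.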

How the data were processed

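The authors deposited 1 table per library with an FPKM value for each listed locus. Build Zv9 and the tools Cuffdiff, Cufflinks 2.1.1 and TopHat 1.4.0 are named in the submitters' processing notes, without roles. The annotation, the filters and the sequencing depth are not given in the sources used. Starts in the files count from 0, and 1 was added. Loci under 300 bp or above 200000 FPKM were dropped, since FPKM at such spans are inflated. Loci of both libraries overlapping by 1 bp or more were merged and their FPKM summed per library. Log2 ratios of FPKM used a pseudocount of 1, which understates changes of low regions. With 1 library per population no test was made. Fragments were recovered from whole multiples in loci of 300 to 600 bp, taking the lowest recurring value as 10 fragments, which gave denominators of 38195710 (1020) and 21878344 (HuC). Merging and counting were tested on simulated data. Python 3.11.15, pandas 2.3.3 and scipy 1.17.1 were used.

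Regions named were the 12 of lowest ratio, the 10 highest in HuC, the 5 highest in 1020, 3 just inside and 3 just outside the threshold, the 3 largest groups within 50 kb, and the 2 longest and 2 shortest. Others are said to be chosen after their values were seen. The members and the rules were chosen with earlier results of these data known. Gene names, marker genes and sequence were not analysed here.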

Additional observations from a re-analysis of the deposited data

Results flagged for a closer look

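Some selected regions contain loci that the comparison left out for their short span or very high FPKM. Such loci lay inside 41 of the 311 regions in the 1020 library (55 loci) and inside 21 in the HuC library (23 loci), and they were listed because they are a signal in data the comparison does not use. In 31 of the 41 the highest FPKM left out in 1020 was above the region's own 1020 value, and in 10 of the 21 the same held in HuC. In 8 regions the left-out 1020 locus spanned 100 bp and was listed at 260085 to 624205 FPKM. One of these was chr6:17407012-17835313, where the region's 1020 sum was 64.5 FPKM and a left-out locus stood at 416137 FPKM. FPKM of such short loci are inflated by their span, and the part these loci have in the differences was not tested. With loci under 300 bp kept and the same FPKM maximum, 282 of the 311 regions overlapped a region at least 4-fold higher in HuC. That setting called 630 of 23410 counted regions (2.69%), and any overlap was enough. Loci above 200000 FPKM stayed left out there, so the 282 cannot show what those loci would change.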

How the results depend on the processing

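The 311 regions became 667 with a pseudocount of 0.1, 119 with 5, 630 with no span minimum, 109 with 1 locus in each library and 94 with highest loci of like span, an alternative chosen after seeing the data. The count stayed within 1.5 times of 311 under the other 7 alternatives, at 268 to 311, and was 277 with the highest locus and 282 with both libraries set to the same sum. Raising the FPKM minimum to 5 or removing it had to give 311, since no selected region was under 6.31 FPKM in HuC. Those alternatives therefore say nothing of stability. The 63 regions at 8-fold or more became 112 with a pseudocount of 0.1, 32 with 5, 255 with no span minimum, 27 with 1 locus each and 20 with like spans. The 110 at 50 FPKM or more in HuC became 304 with no span minimum, 34 with 1 locus each and 45 with like spans. The median span of 8685 bp became 4920 bp with a pseudocount of 0.1, 4250.5 bp with no span minimum and 3853 bp with 1 locus each. The 184 with more than 1 HuC locus became 363 with a pseudocount of 0.1, 69 with 5, 362 with no span minimum and 25 with like spans. The 45 near another selected region became 115 with a pseudocount of 0.1, 14 with 5, 101 with no span minimum, 12 with 1 locus each and 12 with like spans, and 25 within 10 kb. The pseudocount acts on low regions by construction, and restricting the structure leaves fewer regions; the cause of the other changes was not tested. Of 418 values of 37 named regions under alternatives, 358 stayed within 1.5-fold of the reported ratio, 55 moved further and 5 changed sign. Many of the 358 could not move. Changing the FPKM minimum, or keeping only regions with 1 locus in each library, leaves the ratio of a kept region unchanged. The same holds for the highest locus where each library listed 1 locus. Scaling 1020 by 1.07 or 1.04 shifts a log2 ratio by far less than the limit of 1.5-fold. The 358 are therefore no measure of stability. The sign changed with fragments in place of FPKM on chr10:7782173-7811331 (0.0812), chr4:34840407-35095651 (0.77) and chr20:54680740-54685150 (0.63), the last also from 500 bp upward (0.18), and with no span minimum on chr20:54591519-54601604 (2.04). The fragment values take every locus as contiguous and are rough. With 1 library per population, leaving one out was not feasible. No paired analysis was possible because there was 1 library per population.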

Other observations

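With fragments relative to the recovered denominators in place of FPKM, every locus taken as contiguous, 281 of the 311 regions were higher in HuC and 181 at least 4-fold. These are rough values, since the length of a spliced transcript is not given by its span. They derive from the same FPKM that chose the regions and use no pseudocount. The shares over all counted regions are not given here, so both counts are a description and no separate check. Of the regions that the HuC library alone listed, 200 stood at or above 6.31 FPKM, the lowest HuC level among the 311.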
